A study of Mus musculus with 9 samples.

Results

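Nr3c1 and Nr3c2, which encode the glucocorticoid receptor and the mineralocorticoid receptor, were followed with 8 genes that respond to corticosteroids or supply them in the mouse hippocampus. The 8 were Hsd11b1, Fkbp5, Sgk1, Tsc22d3, Zbtb16, Pdk4, Ddit4 and Cdkn1a. All 10 were taken by symbol from the 57180 genes of the deposited table, and all 10 passed the filter on low counts, which left 17550 genes for testing.

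Corticosterone, the main glucocorticoid of mice, crosses into cells and binds both receptors. The mineralocorticoid receptor has the higher affinity for it and is occupied at resting hormone levels, whereas the glucocorticoid receptor fills during stress and at the daily peak. The hippocampus is rich in both. Unbound glucocorticoid receptor sits in the cytoplasm with heat shock protein 90 and its co-chaperones. With hormone it moves to the nucleus and, as a dimer, binds DNA at paired copies of a short motif. Several of its targets feed back on the pathway, and Fkbp5 is the best known of these.

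RNA came from hippocampi of 9 male mice, 3 per group, collected at 6 weeks of age after behavioural tests and enriched for poly(A) RNA. The MAN@SKI II mice were of the strain BTBR T+ Itpr3tf/J (BTBR), an inbred line used as a model of autism, and had received MAN@SKI II, a nanomicelle aimed at the brain that the labels call an inhibitor of S1P (sphingosine-1-phosphate, a signalling lipid), by tail vein for 7 days from 5 weeks of age (40 mg/kg each day). The Model mice were BTBR given vehicle, and the Con mice were C57BL/6J, a standard inbred strain, given vehicle. The labels call the vehicle saline in one field and PBS in another, treated C57BL/6J mice were not analysed here, and strain and disease model cannot be told apart. MAN@SKI II and Con mice differ in both strain and treatment, which that comparison alone cannot separate. The sources used here give neither plasma corticosterone nor the hour of collection.

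Libraries held 14751054 to 18827093 counts, so that 3 counts equalled 0.160 to 0.212 normalised CPM (counts scaled to the library total and its TMM factor, the CPM of all values that follow). One library, MAN@SKI II 2, was separated on principal component 2 at -49.9, with the others at -4.17 to 16.4. Its share of counts from mitochondrially encoded genes was 9.63%, against 6.26% to 7.15% in the others. All 8 hippocampal neuron markers had counts in every library, and their summed level was 5812 to 6248 CPM in MAN@SKI II, 6009 to 6413 CPM in Model and 5984 to 6237 CPM in Con. Of the 8, 1 was called lower in MAN@SKI II against Con and 0 were called in Model against Con by edgeR, where 3 had an unadjusted p under 0.05.

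Promoter windows are shown for Sgk1 and Tsc22d3, because among the members whose windows were searched they alone held the receptor's recognition letters. The windows come from RefSeq on GRCm38.p6 and run from 250 bases before to 50 bases after an annotated start. Windows of 8 of the 10 genes were searched, 16 in all, of which 6 belong to Sgk1 and 3 to Tsc22d3. Zbtb16 had no entry among the windows, and Nr3c1 was left out of the search, so its promoter was not examined. Both strands were searched for a palindrome of 15 bases, AGAACA and TGTTCT separated by 3 bases of any kind, and for its 6-base arm TGTTCT, which reads AGAACA on the other strand, so that each palindrome also holds 2 arms. Arms are in capitals below.
Sgk1, chr10:21993640-21993939, plus strand: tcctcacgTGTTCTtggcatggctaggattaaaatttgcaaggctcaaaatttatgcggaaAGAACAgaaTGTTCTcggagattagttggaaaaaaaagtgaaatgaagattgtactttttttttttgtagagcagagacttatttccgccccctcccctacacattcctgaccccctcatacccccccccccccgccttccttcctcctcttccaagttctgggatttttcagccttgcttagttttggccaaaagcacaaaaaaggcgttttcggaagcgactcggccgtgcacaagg
Tsc22d3, chrX:140600473-140600772, minus strand: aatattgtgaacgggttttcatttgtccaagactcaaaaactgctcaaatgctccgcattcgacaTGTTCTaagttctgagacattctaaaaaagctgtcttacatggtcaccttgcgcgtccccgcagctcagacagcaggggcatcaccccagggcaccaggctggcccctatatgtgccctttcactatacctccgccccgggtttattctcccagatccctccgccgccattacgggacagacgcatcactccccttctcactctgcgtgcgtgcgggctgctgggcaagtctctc
The Sgk1 window carries the whole palindrome from -189 to -175 relative to the start, and a separate arm nearer its 5′ end. The palindrome was found in 3 of 32851 windows of all genes (0.00913%). The arm was found in 4 of the 16 member windows (25%), which are 3 of Sgk1 and 1 of Tsc22d3, against 6233 of all windows (19%). It was found in 4 of 24 windows (16.7%) of 19 other glucocorticoid-responsive genes, none with the palindrome. These matches describe letters in these windows and not binding.

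Per length, on the authors' FPKM scale (counts scaled to gene length and library total), Ddit4 had the highest level of the 10 genes. Ddit4 encodes an inhibitor of mTORC1 signalling, and its median over the 9 libraries was 41.1 FPKM (19.2 to 52.1). Zbtb16, a zinc finger repressor, followed at 13.8 FPKM (11.7 to 15.9). The ranges of Ddit4 and Zbtb16 did not overlap, and neither did those of Zbtb16 and Nr3c2, which came next by median at 8.41 FPKM (7.76 to 9.46). From there each gene overlapped its neighbour in the order. Sgk1, a kinase that regulates ion channels and transporters, had 8.24 FPKM, and Tsc22d3, which encodes GILZ, a mediator of anti-inflammatory glucocorticoid action, had 6.15 FPKM. Nr3c1 had 4.79 FPKM and Fkbp5, a co-chaperone that lowers the receptor's affinity for hormone, had 4.58 FPKM. Pdk4, a kinase that switches off pyruvate dehydrogenase, had 3.97 FPKM. Hsd11b1, whose enzyme regenerates active corticosterone from its inert 11-keto form inside cells, had 3.34 FPKM. Cdkn1a, the cell-cycle inhibitor p21, was last at 1.73 FPKM. The order depends on the gene lengths behind the FPKM values, which ran from 1755 bases for Ddit4 to 17118 bases for Nr3c1. In CPM, which are not scaled to length, Nr3c2 (109 to 138 CPM) lay above Ddit4 (35.1 to 90.5 CPM).

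**Figure D1:**
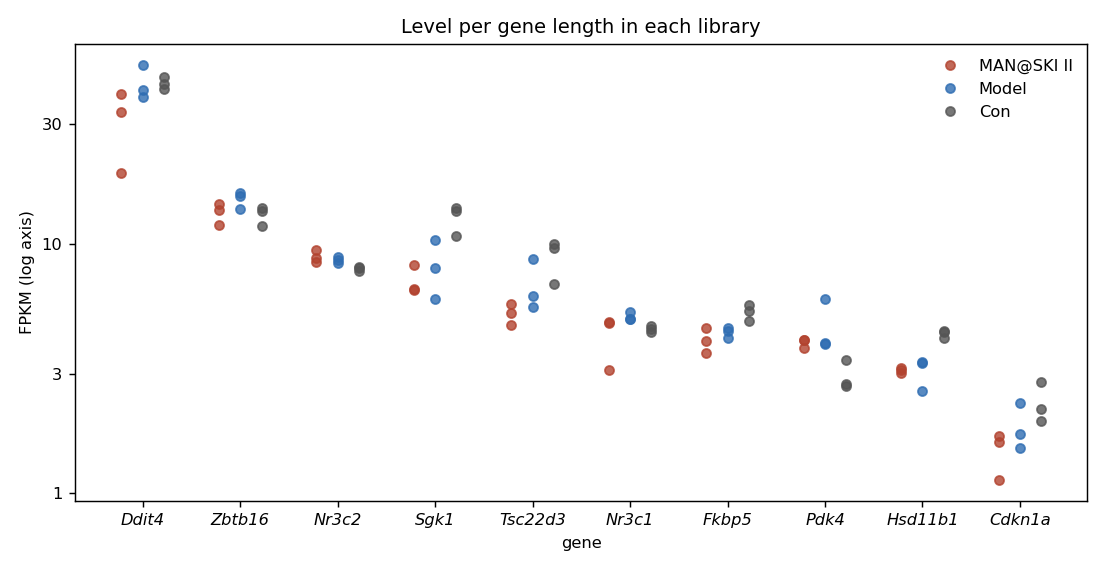
Levels of the 10 genes per length in FPKM, with genes in order of their median over 9 libraries and points for single mice of the MAN@SKI II, Model and Con groups. Ddit4 (19.2 to 52.1 FPKM) and Zbtb16 (11.7 to 15.9 FPKM) are separated from their neighbours in the order, and the remaining neighbours overlap.

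The receptors themselves did not pass the test in any comparison. Nr3c2 had 121, 138 and 117 CPM in MAN@SKI II mice, 116, 123 and 119 CPM in Model mice, and 110.3, 112 and 109 CPM in Con mice. All 6 BTBR mice lay above all 3 Con mice, and the margin was small. The log2 fold change was 0.18 ± 0.07 (SE) for MAN@SKI II against Con (edgeR quasi-likelihood test, Benjamini-Hochberg adjusted p = 0.157) and 0.11 ± 0.07 for Model against Con (adjusted p = 0.431). Nr3c1 had 82.8, 55.4 and 81.4 CPM in MAN@SKI II mice, 85.1, 90.9 and 84.2 CPM in Model mice, and 77.0, 75.2 and 80.1 CPM in Con mice. The low value belonged to MAN@SKI II 2, the library that stood apart. The 3 MAN@SKI II mice lay below the 3 Model mice, with a log2 fold change of -0.24 ± 0.13 (edgeR adjusted p = 0.914). It was -0.34 to -0.078 with each library left out in turn. The 3 Model mice lay above the 3 Con mice, at 0.16 ± 0.13 (edgeR adjusted p = 0.570, and 0.0601 to 0.765 with each library left out in turn). MAN@SKI II against Con gave -0.08 ± 0.13 for Nr3c1 (edgeR adjusted p = 0.776).

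The ratio of Nr3c2 to Nr3c1 counts, which compares the receptors within a library, was 1.46, 2.48 and 1.43 in MAN@SKI II mice, 1.37, 1.36 and 1.41 in Model mice, and 1.43, 1.49 and 1.36 in Con mice. Of these 9 mice, 8 lay between 1.36 and 1.49, and MAN@SKI II 2 was above them. Per length the ratio of FPKM values was 1.76 to 3.05 in MAN@SKI II, 1.66 to 1.73 in Model and 1.66 to 1.83 in Con. On GRCm39 Nr3c1 lies on chromosome 18 from 39543598 to 39652474 and Nr3c2 on chromosome 8 from 77626070 to 77971641. Gm10649 overlaps Nr3c2 on the other strand and had 685 counts over the 9 libraries, against 17736 for Nr3c2; without the strand setting their reads cannot be told apart.

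**Figure D2:**
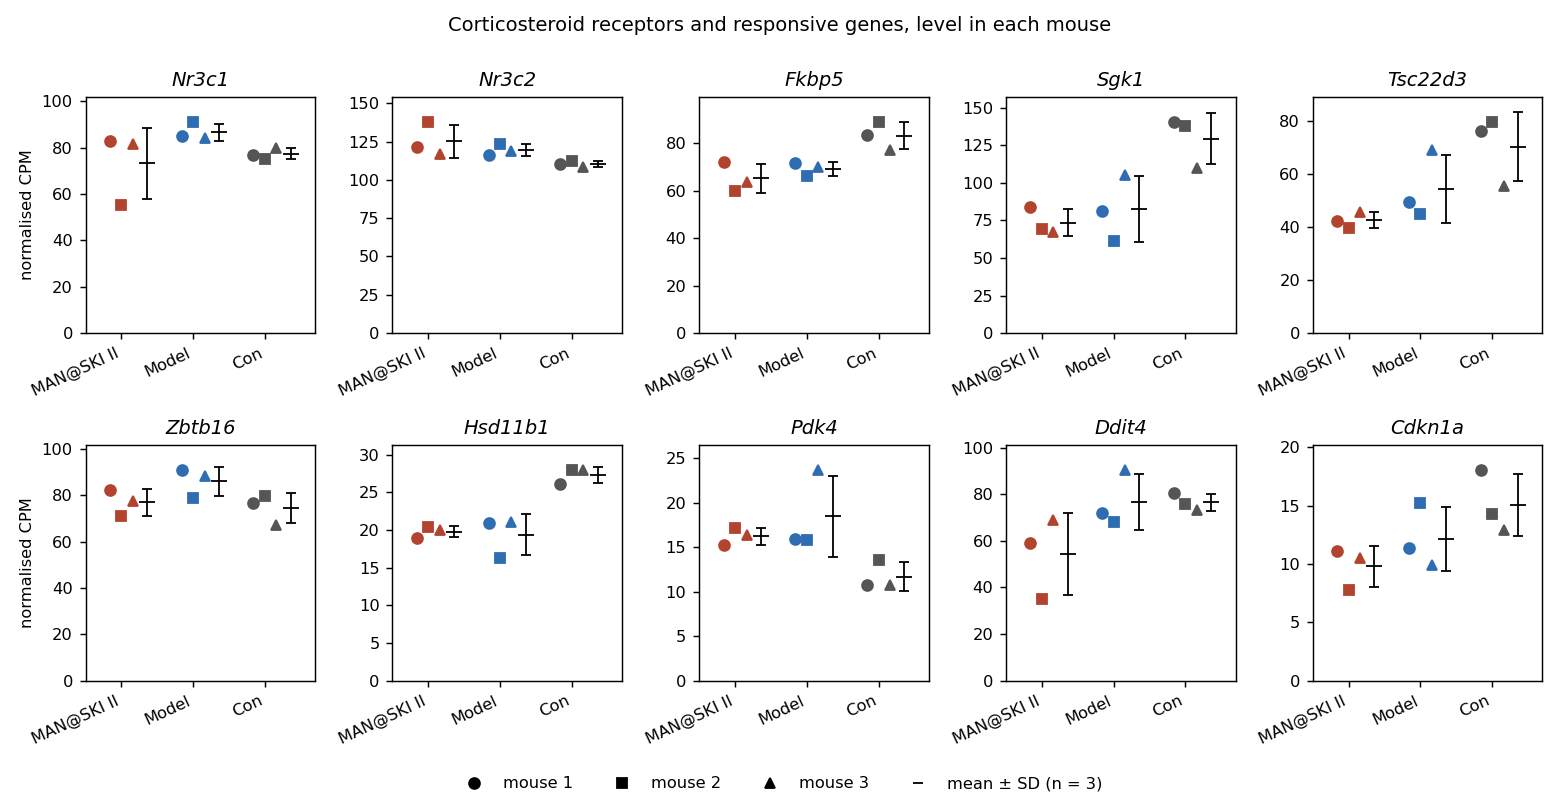
Level of each of the 10 genes in normalised CPM (linear axis from 0) in every mouse of the MAN@SKI II, Model and Con groups, with the mean and SD of 3 mice. Hsd11b1 (16.2 to 21.0 CPM in BTBR mice, 26.1 to 28.0 CPM in Con mice) and Fkbp5 (60.0 to 72.1 CPM and 77.3 to 88.8 CPM) are lower in every BTBR mouse than in every Con mouse.

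Both BTBR groups had less Hsd11b1 than Con. The transcript was at 19.0, 20.4 and 20.0 CPM in MAN@SKI II mice, at 21.0, 16.2 and 21.0 CPM in Model mice, and at 26.1, 28.0 and 27.9 CPM in Con mice. The 6 BTBR mice lay below the 3 Con mice with no overlap. Hsd11b1 fell in MAN@SKI II against Con by 0.47 ± 0.11 on the log2 scale (edgeR adjusted p = 0.0236) and in Model against Con by 0.49 ± 0.11 (adjusted p = 0.0177). MAN@SKI II differed from Model by 0.03 ± 0.11 (adjusted p = 0.977). The call in MAN@SKI II against Con was lost without MAN@SKI II 1 (adjusted p = 0.0810), Con 1 (0.0545), Con 2 (0.0850) or Con 3 (0.0818), and that in Model against Con without Con 2 (0.0680) or Con 3 (0.0674). Hsd11b1 lies on chromosome 1 from 192903942 to 192946383, and Lamb3, which overlaps it on the other strand, had 259 counts in all against 3339. In bulk tissue, fewer cells of a type and less RNA per cell cannot be told apart.

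Against Con mice, which differ in both strain and treatment, Fkbp5, Sgk1 and Tsc22d3 were lower in MAN@SKI II mice. Glucocorticoids induce these genes in many tissues. With Hsd11b1 they made 4 of the 10 members lower and 0 higher in that comparison, where 4.7% of all 17550 genes were called lower, 3.43% higher and 8.13% in either direction. The members' median log2 fold change was -0.41, against -0.0014 over all genes tested. The members were chosen with earlier results of these data known, so such contrasts, here and below, are no test of the list. The groups did not overlap for 8 of the 10 members, 2 of them higher and 6 lower in MAN@SKI II, against 27.3% of all genes. The count of 4 became 2 when MAN@SKI II 1 or 2 was left out, 1 without MAN@SKI II 3, and 0 without Con 1 or Con 2.

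Fkbp5 had 72.1, 60.0 and 63.5 CPM in MAN@SKI II mice, 71.9, 66.1 and 69.9 CPM in Model mice, and 83.5, 88.8 and 77.3 CPM in Con mice. Every BTBR mouse was below every Con mouse. The log2 fold change was -0.35 ± 0.08 in MAN@SKI II against Con (edgeR adjusted p = 0.0269), and in Model against Con it was -0.26 ± 0.08 and did not pass (adjusted p = 0.0933). The call was lost without MAN@SKI II 3 (adjusted p = 0.0621), Con 1 (0.0899) or Con 2 (0.117), and when the 6 libraries compared were fitted alone (0.0685). The Fkbp5 value in Model against Con passed without MAN@SKI II 2 (adjusted p = 0.0287) and with the 6 libraries alone (0.0227). Fkbp5 lies on chromosome 17 from 28618068 to 28736501.

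Sgk1, the gene with the palindrome shown above, had 84.0, 69.5 and 67.0 CPM in MAN@SKI II mice, 81.2, 61.3 and 105 CPM in Model mice, and 140.1, 138 and 110.1 CPM in Con mice. All BTBR mice were below all Con mice, with Model 3 and Con 3 close to each other. Sgk1 fell in MAN@SKI II against Con by 0.82 ± 0.19 on the log2 scale (edgeR adjusted p = 0.0326). In Model against Con the value was -0.65 ± 0.19 (adjusted p = 0.0811). It was -0.86 without Model 3 (adjusted p = 0.0140), and it also passed in DESeq2 (0.00625) and limma-voom (0.0478). The call in MAN@SKI II against Con was lost without MAN@SKI II 2 (adjusted p = 0.154), MAN@SKI II 3 (0.101), Model 1 (0.0550), Con 1 (0.109) or Con 2 (0.104), and with no filter on low counts (0.0766). Sgk1 lies on chromosome 10 from 21758083 to 21875802.

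Tsc22d3 had 42.3, 39.6 and 45.6 CPM in MAN@SKI II mice, 49.3, 45.0 and 69.1 CPM in Model mice, and 76.4, 79.5 and 55.4 CPM in Con mice. The MAN@SKI II mice were below all Con mice, while Model 3 lay inside the range of Con. Tsc22d3 fell in MAN@SKI II against Con by 0.73 ± 0.18 on the log2 scale (edgeR adjusted p = 0.0363), and Model against Con gave -0.37 ± 0.18 (adjusted p = 0.293). The call was lost without MAN@SKI II 1 (adjusted p = 0.102), MAN@SKI II 2 (0.166), MAN@SKI II 3 (0.0711), Con 1 (0.119) or Con 2 (0.117), and with no filter (0.0577). Tsc22d3 lies on chromosome X from 139440277 to 139501408.

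Pdk4, which glucocorticoids and fasting both induce, went the other way. It had 15.2, 17.1 and 16.3 CPM in MAN@SKI II mice, 15.9, 15.8 and 23.7 CPM in Model mice, and 10.8, 13.5 and 10.7 CPM in Con mice. Every BTBR mouse was above every Con mouse, and Model 3 was the highest of all. Pdk4 rose in Model against Con by 0.66 ± 0.17 on the log2 scale (edgeR adjusted p = 0.0334), and MAN@SKI II against Con gave 0.47 ± 0.17 (adjusted p = 0.121). The Model call rested on single libraries: the value was 0.44 without Model 3 (adjusted p = 0.107), the adjusted p was 0.131 without Con 1 and 0.127 without Con 3, and it was 0.0504 in limma-voom and 0.0534 with the 6 libraries alone. In MAN@SKI II against Con, Pdk4 passed without Model 3 (adjusted p = 0.0456). Pdk4 lies on chromosome 6 from 5483351 to 5496309.

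In Model against Con, Pdk4 and Hsd11b1 were thus 1 member higher and 1 lower of 10, where 3.11% of all genes were called higher, 4.52% lower and 7.64% in either direction. An unadjusted p under 0.05 was found for 5 members, against 19.6% of all genes. The members' median log2 fold change was -0.13, against 0.00031 over all genes. The count of 2 became 1 without Con 1 or Con 2, 0 without Con 3, 3 without MAN@SKI II 2 (Fkbp5 added) and 3 in DESeq2 (Sgk1 added). It stayed at 2 in limma-voom and without Model 3, with Sgk1 in place of Pdk4, and with the 6 libraries compared alone, with Fkbp5 in its place. Groups did not overlap for 6 members, 3 above and 3 below, against 32.3% of all genes. Taking all 6 BTBR mice against the 3 Con mice, 2 members lay wholly above and 3 wholly below, against 8.35% of all genes above, 9.95% below and 18.3% in either direction. Model against Con and MAN@SKI II against Con share the Con mice, so that the values of the 2 comparisons are not independent.

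**Figure D3:**
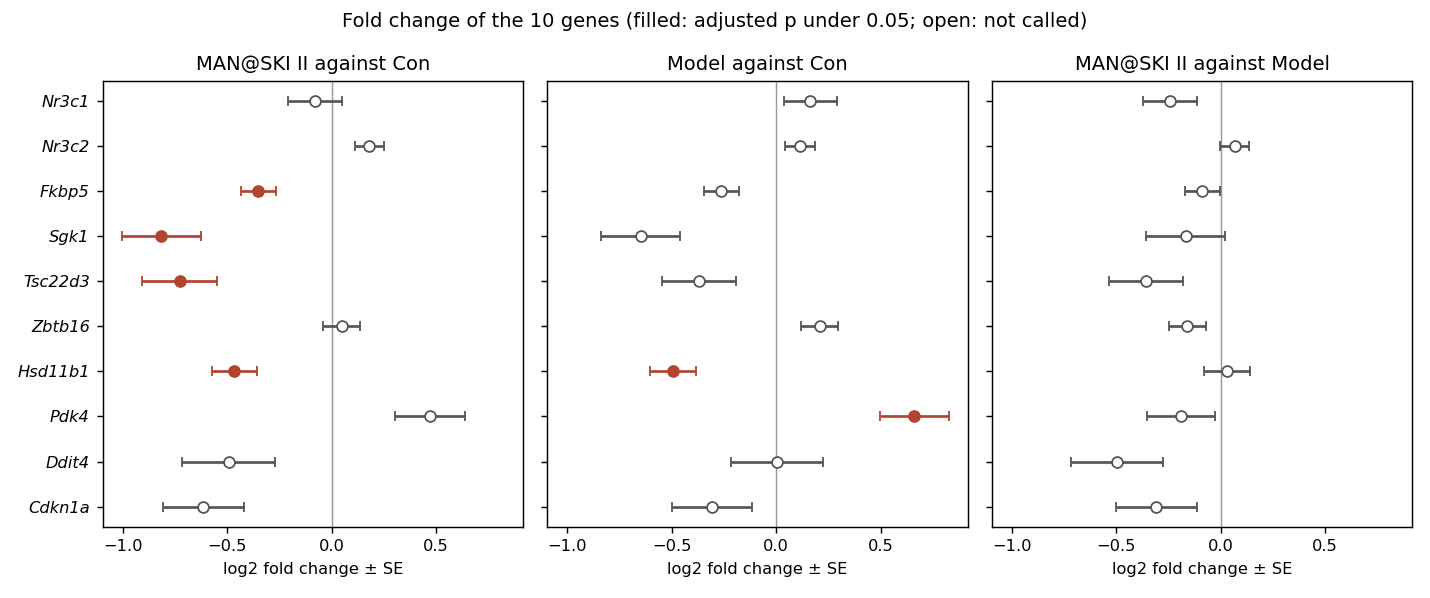
Log2 fold changes of the 10 genes with their standard errors, for MAN@SKI II against Con, Model against Con and MAN@SKI II against Model; filled points were called at an edgeR adjusted p under 0.05. Hsd11b1, Fkbp5, Sgk1 and Tsc22d3 are called lower in MAN@SKI II than in Con, Hsd11b1 lower and Pdk4 higher in Model than in Con, and no gene is called between MAN@SKI II and Model.

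Zbtb16, Ddit4 and Cdkn1a did not pass the test in any comparison. Zbtb16 had 82.5, 71.0 and 77.4 CPM in MAN@SKI II mice, 90.9, 78.9 and 88.2 CPM in Model mice, and 76.6, 79.5 and 67.3 CPM in Con mice, and all groups overlapped. Its log2 fold change was 0.05 ± 0.09 in MAN@SKI II against Con (edgeR adjusted p = 0.806) and 0.21 ± 0.09 in Model against Con (adjusted p = 0.218). Cdkn1a, which p53 also induces, had 11.1, 7.77 and 10.5 CPM in MAN@SKI II mice, 11.4, 15.2 and 9.91 CPM in Model mice, and 18.1, 14.2 and 12.9 CPM in Con mice. The MAN@SKI II mice were below the Con mice, with a log2 fold change of -0.61 ± 0.19 (edgeR adjusted p = 0.0849, and 0.0418 in DESeq2). Zbtb16 lies on chromosome 9 from 48565597 to 48747522 and Cdkn1a on chromosome 17 from 29309950 to 29319701.

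Ddit4, which also answers to energy stress and low oxygen, had 59.0, 35.1 and 69.1 CPM in MAN@SKI II mice, 71.9, 68.1 and 90.5 CPM in Model mice, and 80.6, 76.1 and 73.3 CPM in Con mice. The lowest value was that of MAN@SKI II 2. The MAN@SKI II mice were below the Con mice, at -0.49 ± 0.22 on the log2 scale (edgeR adjusted p = 0.247), and Model against Con was at 0.0040 ± 0.22 (adjusted p = 0.995). Ddit4 lies on chromosome 10 from 59785491 to 59787656.

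MAN@SKI II against Model asked what the treatment did within BTBR, and 0 of the 10 members were called there by edgeR, DESeq2 or limma-voom, where 0% of all genes were called by edgeR. None had an unadjusted p under 0.05, against 4.82% of all genes. The smallest was that of Ddit4, with a log2 fold change of -0.50 ± 0.22 (unadjusted p = 0.0548, edgeR adjusted p = 0.914). Tsc22d3 was at -0.36 ± 0.18, Cdkn1a at -0.31 ± 0.20, Pdk4 at -0.19 ± 0.16, Sgk1 at -0.17 ± 0.19 and Zbtb16 at -0.16 ± 0.09, each with an edgeR adjusted p of 0.914 or 0.918. Fkbp5 was at -0.09 ± 0.08 and Nr3c2 at 0.07 ± 0.07. Nr3c1 alone had groups that did not overlap, being lower in MAN@SKI II, against 4.8% of all genes lower, 4.63% higher and 9.43% in either direction. The members' median was -0.18, against 0.0022 over all genes. This comparison shares the Model mice with Model against Con, so a high Model 3 lowers one value as it raises the other.

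Within a group, single mice stood high or low for several responsive genes at once. Leaving out the receptors and Hsd11b1, Con 3 was the lowest Con mouse for 7 of 7 genes, and it was the lowest for 32.5% of all genes tested. Model 2 was the lowest Model mouse for 6 of 7, with Cdkn1a as the exception, against 35.2% of all genes. Some of these ranks were near ties. For Pdk4, Con 3 had 10.7 CPM and Con 1 had 10.8 CPM, while Model 2 had 15.8 CPM and Model 1 had 15.9 CPM. Model 3 was the highest Model mouse for Sgk1, Tsc22d3, Pdk4 and Ddit4, which is 4 of 7, against 32.6%. In the 22 other glucocorticoid-responsive genes Model 2 was lowest for 16 (72.7%), Model 3 highest for 16 and Con 3 lowest for 14. MAN@SKI II 2 was the lowest of its group for 5 of the 7 genes and the highest for 11 of the 22, against 40.5% of all genes lowest and 39.4% highest in that library. The genes are not independent of each other, and these counts describe 9 mice.

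**Figure D4:**
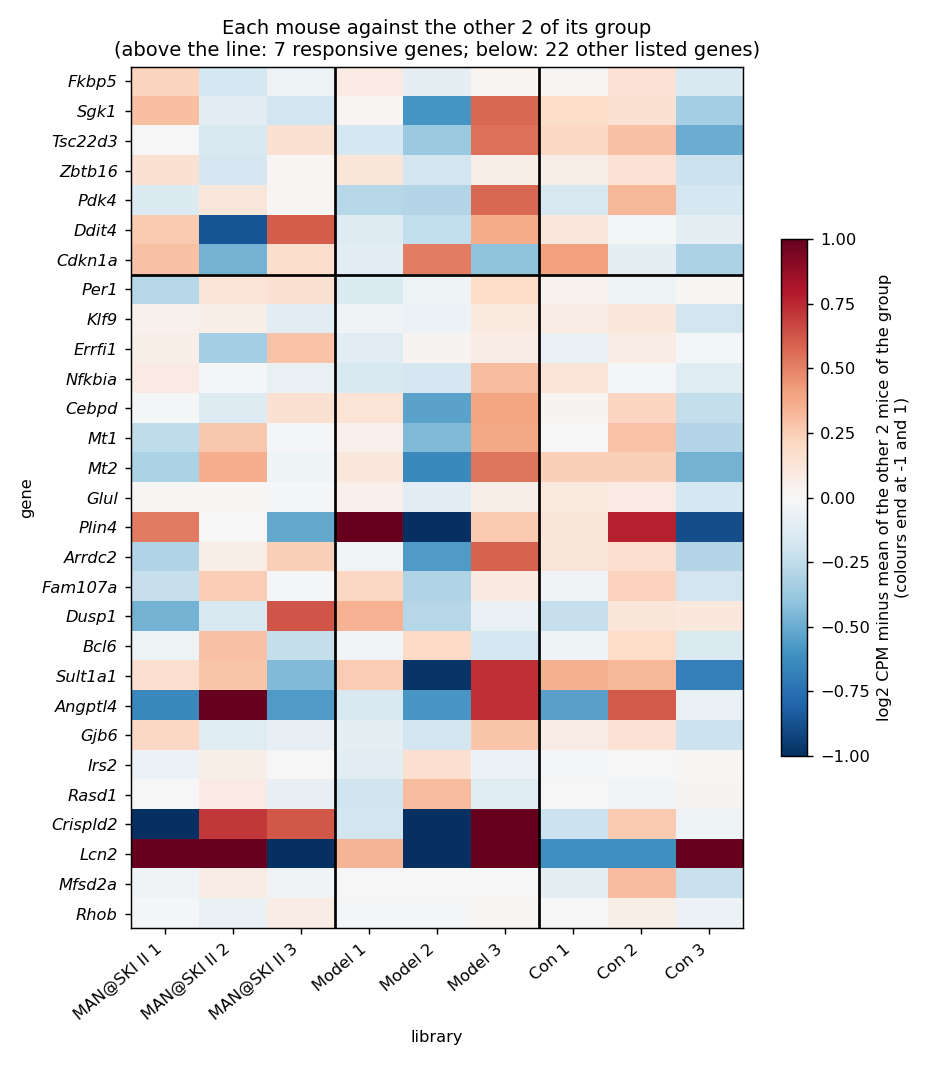
Colours give log2 CPM of each mouse (columns) minus the mean of the other 2 mice of its group, ending at -1 and 1, for 7 responsive genes above the line and 22 other glucocorticoid-responsive genes below it. Con 3 lies lowest in its group for 7 of 7 responsive members and Model 2 for 6 of 7.

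The wider list of 22 glucocorticoid-responsive genes, all of them tested, was lower by 4 genes and higher by 0 in MAN@SKI II against Con, with a median log2 fold change of -0.24. The 4 were Plin4, Arrdc2, Gjb6 and Glul. Over all genes tested, 4.7% were called lower and 3.43% higher. An unadjusted edgeR p under 0.05 was found for 10 of the 22, against 21.6% of all genes. Plin4, a lipid droplet coat protein, averaged 3.25 ± 0.799 CPM in treated BTBR mice and 13.4 ± 4.89 CPM in Con mice (SD over 3 mice, here and in the means that follow), and its log2 fold change was -2.03 ± 0.47 (edgeR adjusted p = 0.0350). Arrdc2, an arrestin-domain protein, had 12.7 ± 1.59 CPM in MAN@SKI II mice and 22.2 ± 2.51 CPM in Con mice, at -0.81 ± 0.18 (edgeR adjusted p = 0.0197). Glul, the glutamine synthetase of astrocytes, had 1122 ± 9.38 CPM in MAN@SKI II mice and 1334 ± 92.2 CPM in Con mice, at -0.25 ± 0.06 (edgeR adjusted p = 0.0326). Gjb6, the astrocytic gap junction protein connexin 30, had 34.0 ± 2.92 CPM in MAN@SKI II mice and 48.7 ± 4.22 CPM in Con mice, at -0.52 ± 0.11 (edgeR adjusted p = 0.0123). The count of 4 was 0 without Con 1 or Con 2 and 1 without MAN@SKI II 1, and it was 6 in DESeq2. Of these calls, that of Plin4 was also lost without MAN@SKI II 2 (adjusted p = 0.129), MAN@SKI II 3 (0.106) or Model 3 (0.0622) and with no filter (0.0883), that of Arrdc2 without MAN@SKI II 2 (0.0562), and that of Glul without MAN@SKI II 3 (0.0671), Model 1 (0.0529) or Model 3 (0.0523) and with the 6 libraries compared alone (0.0788).

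In Model against Con the same list was lower by 1 gene, Gjb6, which averaged 35.6 ± 4.09 CPM in Model mice and 48.7 ± 4.22 CPM in Con mice, a log2 fold change of -0.45 ± 0.11 (edgeR adjusted p = 0.0242). The list's median was -0.10. Over all genes tested, 4.52% were called lower and 3.11% higher. An unadjusted edgeR p under 0.05 was found for 8 of the 22, against 19.6% of all genes. The count of 1 was 0 without Con 1 or Con 2, 2 without MAN@SKI II 2 or MAN@SKI II 3, 3 without Model 3, 2 in limma-voom and 4 in DESeq2. The Gjb6 call in Model was also lost without Model 1 (adjusted p = 0.101) or Model 2 (0.0999). Plin4 averaged 4.25 ± 2.54 CPM in Model mice, at -1.65 ± 0.45 against Con, and did not pass (edgeR adjusted p = 0.0693). Arrdc2 had 14.9 ± 4.02 CPM in Model, at -0.57 ± 0.18 (adjusted p = 0.0878). Glul had 1200 ± 54.7 CPM in Model, at -0.15 ± 0.06 (adjusted p = 0.197). In MAN@SKI II against Model, edgeR, DESeq2 and limma-voom each called 0 of the 22, and the median was -0.08. Of the 22, 4 had an unadjusted edgeR p under 0.05 there, against 4.82% of all genes. These 4 were Dusp1 (-0.67 ± 0.18), Mfsd2a (-0.35 ± 0.10), Rasd1 (-0.25 ± 0.09) and Nfkbia (-0.28 ± 0.11). All 4 were at lower values in MAN@SKI II, with no overlap of the groups and an edgeR adjusted p of 0.914 each. The genes called against Con were not among these 4. Plin4 was at -0.38 ± 0.49, Arrdc2 at -0.24 ± 0.18 and Glul at -0.10 ± 0.06 in that comparison.

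**Figure D5:**
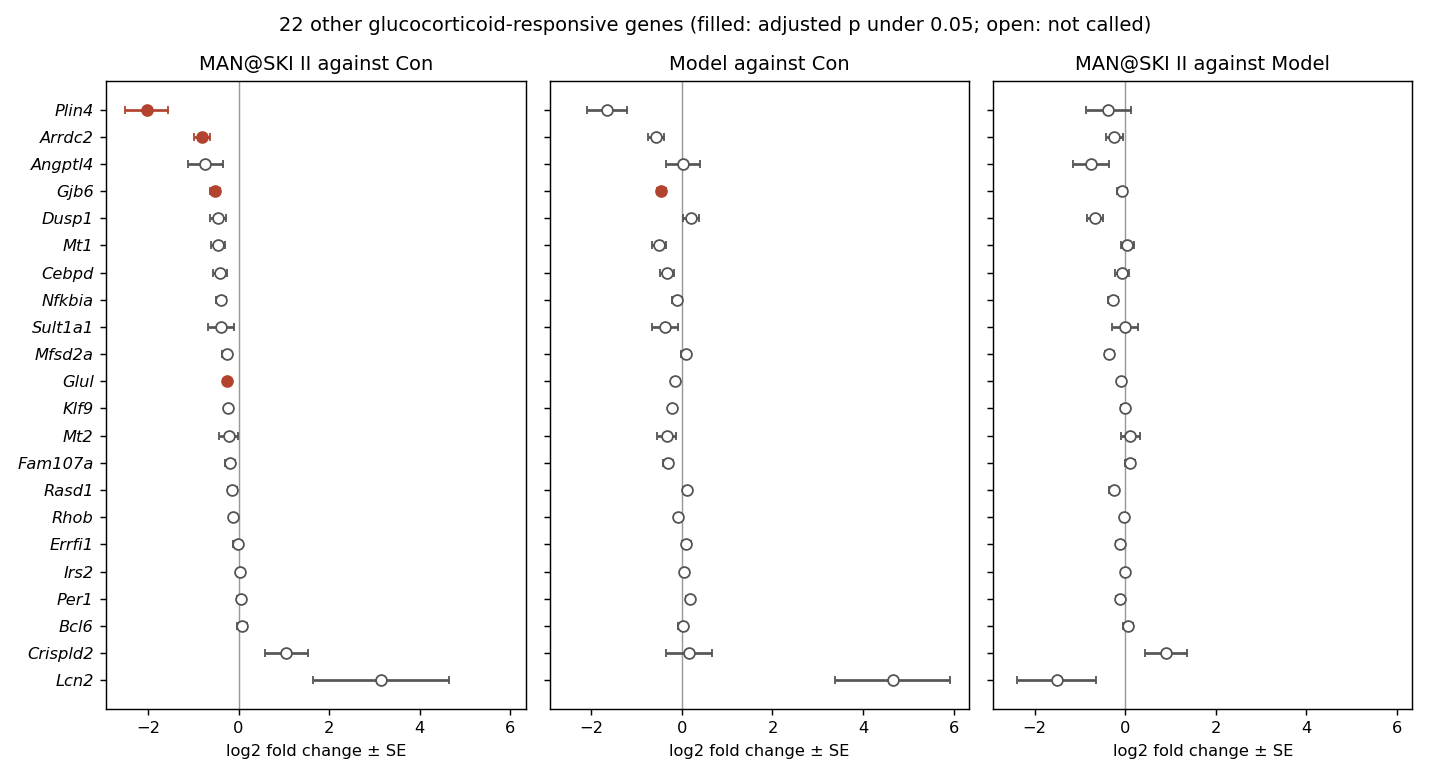
Log2 fold changes with standard errors of the 22 other glucocorticoid-responsive genes in MAN@SKI II against Con, Model against Con and MAN@SKI II against Model; filled points were called at an edgeR adjusted p under 0.05. Plin4, Arrdc2, Gjb6 and Glul are called lower in MAN@SKI II than in Con, and Gjb6 lower in Model than in Con.

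Of the other genes of the pathway, the 10 chaperones and co-chaperones of the receptor and its 10 coregulators held 0 calls in each comparison by edgeR, DESeq2 and limma-voom. In MAN@SKI II against Con, 2 chaperones and 3 coregulators had an unadjusted p under 0.05, and in Model against Con 0 and 1. Their medians lay between -0.0058 and 0.05 for the chaperones and between 0.01 and 0.14 for the coregulators. Of 8 genes of corticotropin-releasing hormone signalling, 6 could be tested and 0 were called by edgeR, with 2 at an unadjusted p under 0.05 in each comparison with Con and 1 called by DESeq2 in Model against Con. Over all genes tested, 21.6% had an unadjusted edgeR p under 0.05 in MAN@SKI II against Con and 19.6% in Model against Con.

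Of 10 genes of corticosteroid metabolism and transport, 8 could be tested. In MAN@SKI II against Con 1 was called higher and 1 lower, and in Model against Con 1 higher. Over all genes, 8.13% and 7.64% were called in either direction. An unadjusted edgeR p under 0.05 was found for 3 and 2 of the 8, against 21.6% and 19.6% of all genes. Akr1c14, which encodes a 3α-hydroxysteroid dehydrogenase and has close relatives in its gene cluster that may share its reads, had 3.55 ± 0.760 CPM in MAN@SKI II, 3.24 ± 0.252 CPM in Model and 1.52 ± 0.325 CPM in Con. It rose in MAN@SKI II against Con by 1.20 ± 0.23 on the log2 scale (edgeR adjusted p = 0.00916) and in Model against Con by 1.07 ± 0.23 (adjusted p = 0.0166). The Model call was lost without Model 1 (adjusted p = 0.0580), Model 2 (0.0565), Con 1 (0.0690) or Con 2 (0.0541). Srd5a1, a steroid 5α-reductase, had 7.78 ± 1.21 CPM in MAN@SKI II mice and 11.5 ± 1.16 CPM in Con mice, at -0.56 ± 0.14 (edgeR adjusted p = 0.0367). In Model it had 8.04 ± 0.693 CPM, at -0.51 ± 0.14 against Con, and did not pass (adjusted p = 0.0524). The Srd5a1 call in MAN@SKI II was lost when any library other than MAN@SKI II 1 or Model 2 was left out, with adjusted p-values of 0.0509 to 0.145.

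Cdkn1a is also induced by p53, Ddit4 by the integrated stress response and Pdk4 by PPAR receptors, and other targets of each were counted. Of 11 p53 targets tested, Ccng1, cyclin G1, rose to 116 ± 22.4 CPM in MAN@SKI II against 78.5 ± 0.616 CPM in Con (edgeR adjusted p = 0.0112) and was at 105 ± 6.21 CPM in Model (adjusted p = 0.0441 against Con). Phlda3, an inhibitor of AKT signalling, fell to 11.6 ± 1.84 CPM in MAN@SKI II (adjusted p = 0.00204) and 13.1 ± 0.156 CPM in Model (adjusted p = 0.00897), against 20.2 ± 1.37 CPM in Con. Perp, a membrane protein of the p53 response, fell to 2.95 ± 0.588 CPM in Model against 6.80 ± 2.32 CPM in Con (edgeR adjusted p = 0.0191). In MAN@SKI II Perp was at 3.72 ± 0.813 CPM and did not pass against Con (adjusted p = 0.0759). The Ccng1 call in Model was lost without any one of the 9 libraries other than MAN@SKI II 2 or MAN@SKI II 3, and that of Perp without Model 1, Model 3 or Con 1. Of 8 genes of the integrated stress response and 8 targets of PPAR receptors, 0 were called by edgeR in any comparison, with 2 of each at an unadjusted p under 0.05 in each comparison with Con and 1 stress response gene called by DESeq2 in MAN@SKI II against Con. Of the 11 p53 targets, 5 had an unadjusted edgeR p under 0.05 in MAN@SKI II against Con and 8 in Model against Con. The shares over all genes were 21.6% and 19.6%.

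Among 13 close relatives of the members, Cdkn1c, the cell-cycle inhibitor p57, had 2.55 ± 0.151 CPM in MAN@SKI II, 3.23 ± 0.0502 CPM in Model and 7.24 ± 2.37 CPM in Con. It fell in MAN@SKI II against Con by 1.49 ± 0.22 on the log2 scale (edgeR adjusted p = 0.00183) and in Model against Con by 1.15 ± 0.22 (adjusted p = 0.00736). Ddit4l, a relative of Ddit4, had 4.69 ± 0.887 CPM in Model and 8.96 ± 1.19 CPM in Con, at -0.93 ± 0.20 (edgeR adjusted p = 0.0148). In MAN@SKI II it had 5.74 ± 1.35 CPM, at -0.64 ± 0.20 against Con, and did not pass (adjusted p = 0.0774). The Ddit4l call in Model was lost without Model 1 (adjusted p = 0.0693), Model 3 (0.0651), Con 1 (0.0618) or Con 3 (0.0603). Of the 13, 1 was called lower in MAN@SKI II against Con and 2 in Model against Con, where 4.7% and 4.52% of all genes were. An unadjusted edgeR p under 0.05 was found for 7 and 4 of them, against 21.6% and 19.6% of all genes. In MAN@SKI II against Model, edgeR, DESeq2 and limma-voom each called 0 p53 targets and 0 relatives, and for none of them was the unadjusted edgeR p under 0.05.

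Some markers of oligodendrocytes, choroid plexus and dentate granule cells were also called lower in both BTBR groups than in Con. All markers of the first 2 lists had negative log2 fold changes in both comparisons. Over all genes tested, 4.7% were called lower in MAN@SKI II against Con and 4.52% in Model against Con. An unadjusted edgeR p under 0.05 was found for 21.6% and 19.6% of all genes. The summed level of 9 oligodendrocyte markers was 2527 to 2865 CPM in MAN@SKI II, 2970 to 3289 CPM in Model and 4724 to 5445 CPM in Con, and 8 of 9 fell in MAN@SKI II and 6 of 9 in Model against Con. All 9 had an unadjusted p under 0.05 in each of these comparisons. The 10 choroid plexus markers summed to 148 to 466 CPM in MAN@SKI II, 124 to 453 CPM in Model and 1171 to 3143 CPM in Con, with 5 of 10 lower in each comparison with Con. Of the 10, 9 had an unadjusted p under 0.05 in each, with median log2 fold changes of -2.99 in MAN@SKI II and -3.14 in Model. Ttr, which defines that tissue, had 17.0, 19.3 and 313 CPM in MAN@SKI II mice, 13.5, 257 and 12.9 CPM in Model mice, and 2229, 1258 and 823 CPM in Con mice. Con 3, the lowest Con mouse for the responsive genes, had the lowest choroid plexus, oligodendrocyte and dentate sums in its group, while Model 2, the lowest Model mouse for most of them, had the highest choroid plexus and oligodendrocyte sums and the lowest dentate sum in its group. The 8 dentate granule cell markers summed to 420 to 514 CPM in MAN@SKI II, 364 to 443 CPM in Model and 488 to 541 CPM in Con, with 3 of 8 lower in each comparison with Con. An unadjusted p under 0.05 was found for 5 of these 8 in each.

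Sums of the remaining cell types are given here for comparison. Astrocyte markers summed to 3429 to 3799 CPM in MAN@SKI II, 3516 to 3770 CPM in Model and 3812 to 3925 CPM in Con, with 1 of 7 lower in each comparison with Con. Endothelial markers summed to 217 to 261 CPM in MAN@SKI II, 250.3 to 265 CPM in Model and 275 to 287 CPM in Con, with 1 of 7 lower in MAN@SKI II and 0 in Model. Mural and vascular fibroblast markers summed to 190 to 198 CPM in MAN@SKI II, 201 to 210 CPM in Model and 220 to 237 CPM in Con, with 1 of 7 lower in each. Microglial markers summed to 258 to 280 CPM in MAN@SKI II, 251 to 255 CPM in Model and 271 to 303 CPM in Con, with 0 of 6 called by edgeR (3 in MAN@SKI II and 2 in Model against Con had an unadjusted p under 0.05). Markers of CA2 neurons summed to 311 to 342 CPM in MAN@SKI II, 306 to 335 CPM in Model and 283 to 305 CPM in Con, with 1 of 7 higher in each comparison with Con. Ependymal markers summed to 17.3 to 24.9 CPM in MAN@SKI II, 12.5 to 22.2 CPM in Model and 19.3 to 30.9 CPM in Con, with 0 of 6 called by edgeR. Of these 6, 2 in MAN@SKI II and 4 in Model had an unadjusted p under 0.05 against Con, with median log2 fold changes of -0.52 and -0.90. None of these markers was below 0.2 CPM in all libraries, and the part of cell composition in the members' differences was not tested.

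The genes closest in profile to the members with the smallest adjusted p were found by the root mean square difference of centred log2 CPM over the 9 libraries. They were picked from the 17550 genes tested, leaving out Gm and Rik symbols and pseudogenes. With so many genes and 9 libraries, a close profile does not show shared regulation, which was not tested. For Hsd11b1 they were Mertk, a phagocytic receptor (0.0586), Ehd3, an endocytic protein (0.0594), and Cys1, a protein of cilia (0.0626), where the spread of Hsd11b1 itself was 0.251. For Fkbp5 they were Rhou (0.0468), Tceal8 (0.0513) and Snrpd3 (0.0576), against a spread of 0.171. For Sgk1 they were Cntnap3 (0.127), Glra2 (0.145) and Kcns1 (0.149), against 0.418.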

How the data were processed

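Hippocampal poly(A) RNA of 9 mice was sequenced, per the labels' protocols. The authors deposited raw read counts per gene and FPKM values. Each FPKM equals the count divided by a fixed gene length and by the library total, within a relative spread of 1.82e-05 over 12528 genes checked. The submitters' processing notes name Bowtie2, edgeR 3.2.0, StringTie 1.3.3b, HISAT2 2.0.4 and build GRCm39. For their roles, the annotation and the use of strand, the entry is: not given in the sources used here.

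Groups follow the sample titles, which call replicates biological. Counts were tested with edgeR 4.0.16 in R 4.3.3: filterByExpr (17550 genes), TMM factors (0.960 to 1.01), a robust quasi-likelihood fit to all 9 libraries with group as the only term, and Benjamini-Hochberg adjustment over all genes tested. A gene was called, and described as higher or lower by a test, at an adjusted p under 0.05. Every adjusted p is from edgeR unless another tool is named. CPM are TMM-scaled. Floors in CPM cover counting error only. The procedure was tested on simulated data.

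Named genes were the 10 members, the called genes of each list (up to 4 per comparison), the first marker or the sum of each marker list, and the 3 genes nearest in profile to each of 3 members. Members and lists were chosen with earlier results of these data known. Alternatives were RLE factors, no factors, no filter, a filter of 1 CPM in 3 libraries, DESeq2 1.42.0, limma-voom 3.58.1, the 6 libraries compared alone, a replicate block, and each library left out in turn. Figures were drawn in Python 3.11.15.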

Additional observations from a re-analysis of the deposited data

How the results depend on the processing

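With 3 mice per group, calls near the threshold depended on single libraries. With each library left out in turn, members called numbered 0 to 5 in MAN@SKI II against Con (4 with all libraries) and 0 to 3 in Model against Con (2 with all). Genes called then numbered 857 to 1633 (1427 with all) and 830 to 2226 (1340 with all) in these comparisons, and 0 to 9 in MAN@SKI II against Model (0 with all), where members called stayed at 0 in every setting run. Members called in MAN@SKI II against Con were 2 with no filter on low counts. Fitting only the 6 libraries compared called 2073 genes in Model against Con. In MAN@SKI II against Model, DESeq2 called 17 genes, and no factors, no filter, the replicate block and the 6 libraries compared called 1 each.

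Over all genes tested, mice with the same replicate number in their titles did not deviate together (correlations of -0.06 to 0.05). These values show no pairing by number, but they cannot exclude one that affects few genes. With the replicate block, members called were 2 in MAN@SKI II against Con and 1 in Model against Con, and 0 in MAN@SKI II against Model. Under it the adjusted p exceeded 0.05 for Sgk1 (0.0687), Tsc22d3 (0.0931), Plin4 (0.0513) and Glul (0.0638) in MAN@SKI II against Con, and for Pdk4 (0.0519) and Gjb6 (0.0541) in Model against Con.

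Log2 fold changes near 0 changed sign. Ddit4 in Model against Con was -0.0038 in limma-voom and -0.016 with the replicate block, and -0.13 to 0.083 with single libraries left out. In the same way MAN@SKI II against Model gave -0.0064 to 0.11 for Nr3c2, -0.34 to 0.045 for Sgk1, -0.084 to 0.090 for Hsd11b1 and -0.29 to 0.032 for Pdk4, and MAN@SKI II against Con gave -0.18 to 0.086 for Nr3c1 and -0.021 to 0.10 for Zbtb16. The cause was not tested.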
